A study of Saccharomyces cerevisiae with 104 samples.

Results

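The genes described are 54 genes of the small (40S) ribosomal subunit of budding yeast (Saccharomyces cerevisiae), among 7122 genes in the count table. They were chosen by name: every RPS gene off chromosome XI, whatever its level. They comprise 44 genes in 22 pairs of paralogues (an A and a B copy of one protein), 8 genes that are the sole source of their protein, and RPS21B and RPS27B, whose partners RPS21A and RPS27A lie on chromosome XI. All 54 passed the filter on low counts, which kept 5822 genes.

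The study asked how gene expression changes when single residues of the histones, the proteins that package DNA into nucleosomes, are replaced. Messenger RNA was measured by QuantSeq, which reads the 3′ end of each transcript, so that a count does not grow with the length of the transcript. Wild type (WT) had 4 libraries. The strains, all in the MSY196 background derived from S288C, carried 1 of 22 substitutions in histone H3 or 1 of 7 in histone H4. In a name such as H3S86D, serine 86 of H3 is replaced by aspartate. The H3 mutants were H3T3A and H3T3D (2 libraries each), and H3K4Q, H3K4R, H3K18A, H3S31D, H3K36A, H3K36Q, H3K36R, H3K37Q, H3K37R, H3R40K, H3S86A, H3S86D, H3K115A, H3K115Q, H3K115R, H3K121A, H3K121Q, H3K121R, H3K122A and H3K122Q (3 each). The H4 mutants were H4Y88A (4 libraries), and H4K44Q, H4K44R, H4R55A, H4Y88F, H4K91Q and H4K91R (3 each). How the mutant histones were introduced, and the growth of the cultures used for RNA, are not given in the sources used here. A library is named by its genotype and the sample number in its column, as in WT S133.

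Ribosomal protein genes are among the most strongly transcribed genes of growing yeast. Their transcription is driven by Rap1, Fhl1, Ifh1 and Sfp1, follows nutrient signals through the TOR and protein kinase A pathways, and falls in stress. Many of them were doubled in an ancient duplication of the genome, and both copies have been kept. Several, RPS14B, RPS9A and RPS28B among them, are known to be held down by their own protein.

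Gene counts per library ranged from 768398 to 3143681 (median 1507838.5), except for H3K4R S55 with 24010. Levels are given in CPM (counts scaled to a common library size of 1000000), and they are relative to all mRNA counted, so less ribosomal protein mRNA per cell and more of other mRNA cannot be told apart. Reads placed at more than one site were not counted in genes. Where the 3′ ends of paralogues are near-identical, their levels are therefore uncertain, and the strand setting of the counting is not stated. Reads that fell in no counted gene numbered 0.41 to 1.01 times the gene counts. The span counted for each gene is not stated either, so a gene whose 3′ end lies outside it would read too low. Which genes this touches was not tested. Sample numbers fell into 3 sets, of 44, 22 and 24 libraries, with 3, 0 and 1 libraries of WT. What the sets stand for is not stated, and 8 mutants, among them H3S31D, H3T3D, H3R40K, H3K37Q and H4R55A, lay wholly in the third set.

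The 54 genes took 11.8% ± 1.01 (SD, n = 4) of the gene counts in WT. In single libraries their share ran from 8.44% to 13.7%. By genotype mean it was lowest in H3T3D, at 9.55% and 9.63%, then in H3K36A, at 8.92%, 9.35% and 11.8%, and in H3S31D, at 9.62%, 10.2% and 10.4%. H3K36A overlapped WT through its highest library, S94, which is in the second set, where there is no WT library. Its other libraries are in the first set and lay below the 3 WT libraries there. The share was highest in H3S86D, at 13.3%, 13.4% and 13.7%. The WT libraries stood at 10.7%, 11.2%, 12.5% and 12.8%. The libraries of H3T3D and H3S31D thus lay below every WT library and those of H3S86D above every WT library, as the plot of shares by genotype shows. H3T3D and H3S31D lie wholly in the third set, whose only WT library, S133, was the lowest of WT at 10.7%. The median share was 11.6% in the third set, against 12.2% in the first and 12.8% in the second. Libraries of 1 genotype could differ as widely as genotypes did: those of H3K115A spanned 8.44% to 13.5%. No test was made on this sum, because the genes were chosen with results of these data known.

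**Figure D1:**
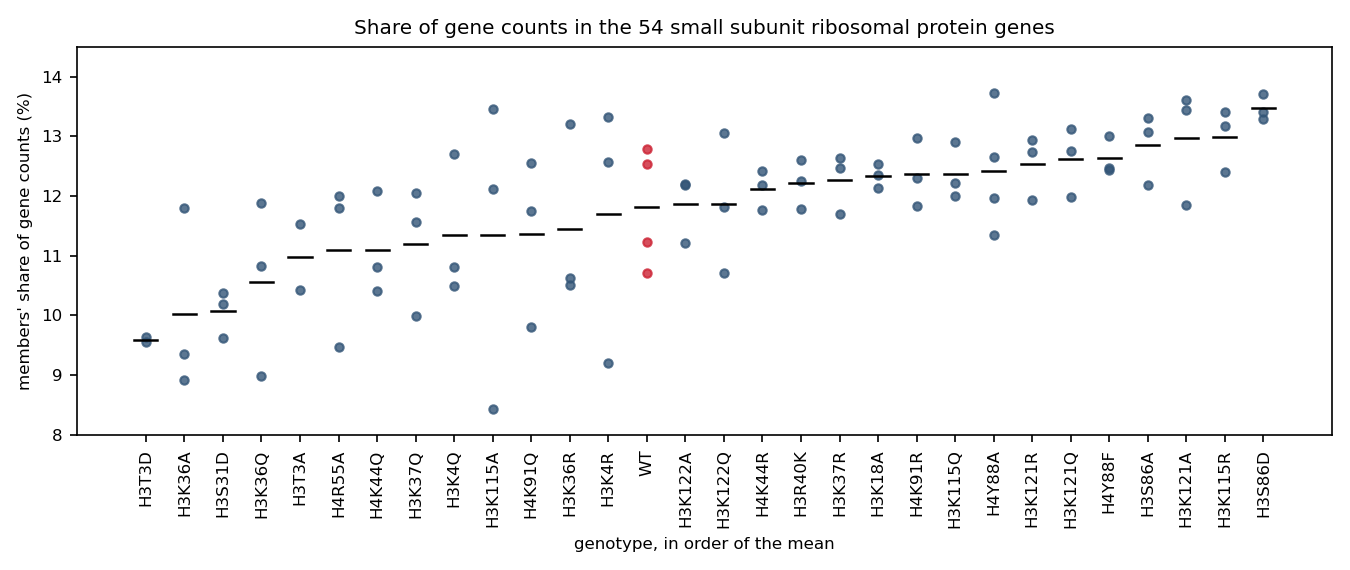
Share of all gene counts (percent, y axis) taken by the 54 small subunit ribosomal protein genes in each library (points), by genotype in order of the mean (bars); WT is red. H3T3D, H3K36A and H3S31D have the lowest means (9.59%, 10.0% and 10.1%) and H3S86D the highest (13.5%).

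Among the 54 genes, RPS31 (YLR167W), which encodes a fusion of ubiquitin with a protein of the head of the subunit, had the highest level in WT, at 9465, 12115, 14550 and 10393 CPM in S133, S81, S46 and S82. RPS12 (YOR369C), a protein of the beak of the subunit, followed with 6009, 15156, 11433 and 8560 CPM in the same order. RPS2, at the entry of the mRNA channel, had 4822, 5115, 6314 and 4713 CPM. RPS31 and RPS12 overlapped in WT, and both lay above RPS2 in each of these libraries. The lowest were RPS28B, the minor copy of a protein near the mRNA exit, at 32.9, 30.9, 69.3 and 41.6 CPM, and RPS20 (YHL015W), a protein of the head next to the mRNA entry, at 177, 83.98, 108.8 and 152 CPM. RPS9A, the minor copy of a protein needed for accurate decoding, had 102.3, 249, 318 and 212 CPM. RPS28B lay below RPS20 and RPS9A without overlap, while RPS20 and RPS9A overlapped.

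Of the 8 genes that are the sole source of their protein, 6 were called for any difference among the 30 genotypes. The test was edgeR's quasi-likelihood test with Benjamini-Hochberg adjustment (adjusted p under 0.05), which called 52.7% of all 5822 genes. Among the 6 were RPS2, RPS3 (mRNA entry), RPS12, RPS20 and RPS31. RPS13 and RPS15 did not pass (adjusted p = 0.0819 and 0.32). RPS31 ranged from a genotype mean of 9145 CPM in H3K36A to 17715 in H3R40K, and RPS12 from 6181 in H4R55A to 14793 in H3S86D. RPS3 ranged from 2249 in H3T3D to 4515 in H3K121R, and RPS2 from 3848 in H3T3D to 7193 in H3S86D. The highest genotype mean of these 4 genes was 1.87 to 2.39 times the lowest.

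RPS20, as counted, ran the other way. Whether its 3′ end lies within the counted span was not tested. RPS20 was lowest in H3S86D, at 61.7, 66.5 and 91.2 CPM, and highest in H3S31D, at 228, 209 and 218 CPM. In WT it had 83.98 to 177 CPM. The 3 libraries of H3S31D lay above every WT library, whereas H3S86D overlapped WT. Neither difference from WT passed (log2 fold change -0.83, adjusted p = 0.195, and 0.74, adjusted p = 0.113), but RPS20 varied among genotypes (adjusted p = 0.00105). Across the 30 genotype means, its log2 level had a mean Pearson's r of -0.60 with the other 53 genes. Over all pairs of the 54 genes the median r was 0.70, as a description over genotypes that share libraries and depth.

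Over all 54 genes, 36 (66.7%) differed among the genotypes, against 52.7% of all 5822 genes tested. Both paralogues passed in 11 of the 22 pairs, 1 of them in 7 pairs and neither in 4. The smallest adjusted p values were those of RPS9A (6.39e-05), RPS30A (0.000181), whose protein lies near the mRNA entry, RPS22B (0.000847) and RPS11B (0.000916), a protein of the body of the subunit. RPS9A ranged from 117.9 ± 15.8 CPM (SD, n = 3) in H4R55A to 338 ± 46.1 (n = 3) in H3K121R. RPS30A ranged from 341 ± 28.4 CPM (n = 3) in H3S31D to 1003 ± 189 (n = 3) in H3S86D. RPS11B ranged from 209 ± 87.02 CPM (n = 3) in H4R55A to 621 ± 357.3 (n = 3) in H3K121A, a mean with a wide spread between libraries. H3S31D was the lowest genotype for 21 of the 54 genes and H3T3D for 14, and H3S86D was the highest for 25. The ratio of the highest to the lowest genotype mean had a median of 2.14 and ran from 1.46 (RPS1A) to 4.26 (RPS19A).

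Each mutant was next compared with WT. Of 1566 comparisons of a member with WT, 15 passed (0.958%), against 1.4% over all genes. Pooled over the mutants, the 54 genes were thus not called more often than other genes. The 15 calls were 3 increases and 12 decreases, in 14 genes, and 23 mutants had no call. Single mutants could differ from the pooled share: in H3S31D 10 of the 54 genes fell, against 3.14% of all genes. With the set of sample numbers as a covariate, 11 of the 54 genes fell in H3K36A, where 3.62% of all genes fell. With it, 1 each fell in H3K4Q (RPS9A) and H4K44Q (RPS22B), where the shares of all genes are not given here. The medians of the 54 log2 fold changes ran from -0.50 in H3T3D and H3S31D to 0.36 in H3S86D, while the medians over all tested genes stayed between -0.04 and 0.02. For the mean of the 29 mutants against WT, 0 of 54 passed in edgeR, where 2 had an unadjusted p under 0.05, and DESeq2 also called 0; 0.137% of all genes were called. Those 2 were RPS19A, at the head of the subunit (log2 fold change -0.63), and RPS0A (-0.42).

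**Figure D2:**
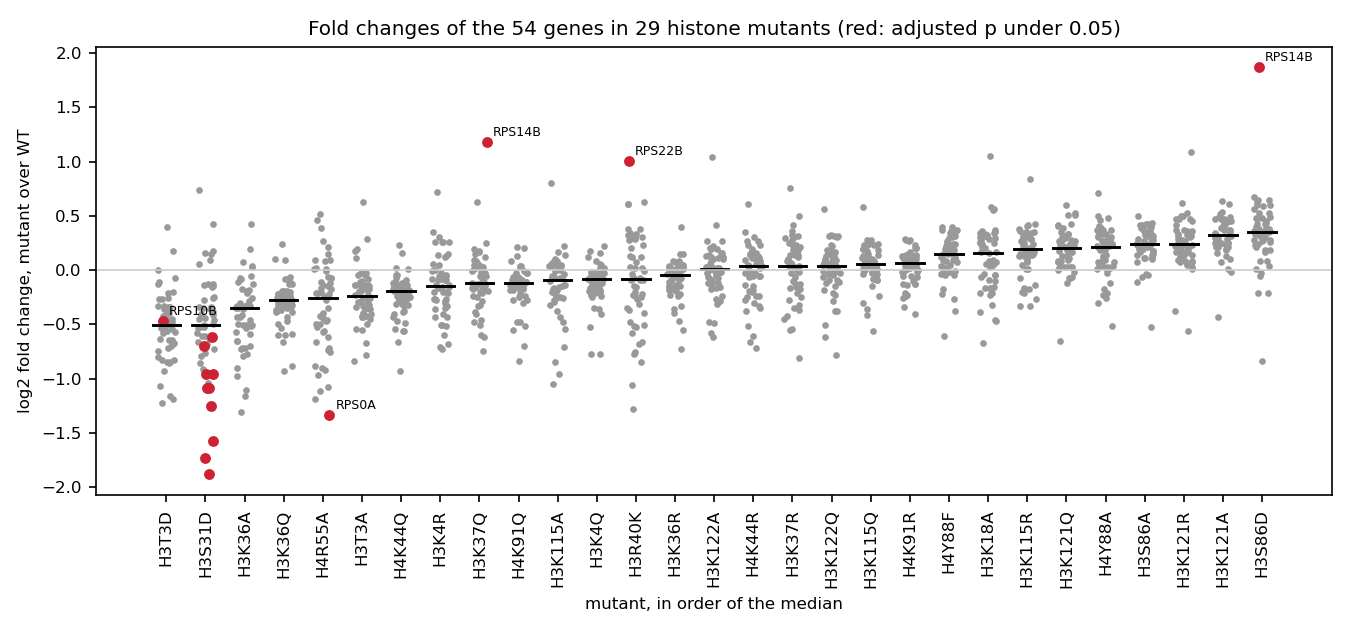
Log2 fold changes of the 54 genes over WT (points, y axis) in each of the 29 mutants, in order of their median (bars). Red points passed edgeR's quasi-likelihood test at an adjusted p under 0.05: 10 decreases in H3S31D, 1 each in H3T3D and H4R55A, and increases of RPS14B in H3S86D and H3K37Q and of RPS22B in H3R40K.

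RPS14B was 3.65 times as high in H3S86D as in WT. RPS14A and RPS14B (YJL191W, chromosome X, 73787 to 74611 in the RefSeq annotation) encode a protein of the platform of the subunit that is needed to mature the 18S rRNA. RPS14B stood at 1349.6, 1226 and 1211 CPM in H3S86D S113, S87 and S88, against 283, 495, 243 and 362 CPM in WT S133, S46, S81 and S82. Every library of H3S86D lay far above every library of WT. The log2 fold change was 1.87 ± 0.38 (SE), with an adjusted p of 0.00332 in edgeR's quasi-likelihood test, in a comparison where 0.601% of all genes rose. The call held in each of 15 alternatives, at 1.58 to 2.08. RPS14A in the same libraries stood at 3386, 3507 and 3351 CPM, within the 2587 to 3840 CPM of WT, with a log2 fold change of 0.09 (adjusted p = 0.836).

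In H3S86A, which replaces the same serine by alanine, RPS14B did not pass against WT. The difference between H3S86A and H3S86D was -1.45 (unadjusted p = 0.000726, adjusted p = 0.222 in edgeR) and was not called. RPS14B also rose in H3K37Q, to 607, 793 and 948 CPM, all above the WT libraries (log2 fold change 1.18 ± 0.37 SE, adjusted p = 0.0481, where 4.29% of all genes rose). That call was lost under 9 of 15 alternatives, among them the filter, scaling without ribosomal protein genes, and any single library of H3K37Q left out (adjusted p 0.00601 to 0.203 over the alternatives). Its log2 fold change was above 0 in 26 of 29 mutants, all of which share the same WT libraries.

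The level of RPS14B also moved with the set of sample numbers. Without H3S86D and H3K4R S55, its median was 354 CPM over 41 libraries of the first set, 664 CPM over 21 of the second and 506 CPM over 24 of the third. H3S86D S87 and S88 belong to the first set, as do WT S46, S81 and S82, and within that set they lay above every other library, the highest of which had 691 CPM. With the set as a covariate, the log2 fold change in H3S86D was 1.58 (adjusted p = 3.54e-05).

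RPS22B rose in H3R40K. RPS22A and RPS22B (YLR367W, chromosome XII, 856442 to 857317) encode a protein of the body of the subunit, and an intron of RPS22B holds the small nucleolar RNA snR44. RPS22B stood at 2305, 1908 and 3505 CPM in H3R40K S136, S137 and S138, above the WT libraries at 1142, 1561, 1213 and 1199 CPM. The groups did not overlap, and S138 was well above both others. The log2 fold change was 1.01 ± 0.25 (SE; adjusted p = 0.00591 in edgeR's quasi-likelihood test), where 4.57% of all genes rose. Without S138 it was not called. RPS22A, at 3355, 2616 and 2829 CPM in H3R40K, lay within the WT range of 2094 to 3878 CPM (log2 fold change 0.13, adjusted p = 0.821). With the ratio of multiply placed reads as a covariate, RPS22A was called lower there (-0.64, adjusted p = 0.0337). RPS22B had a median of 1087 CPM over the first set of libraries, 1568 CPM over the second and 1597 CPM over the third, which holds H3R40K. Its log2 fold change with the set as a covariate was 1.02 (adjusted p = 0.00623).

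**Figure D3:**
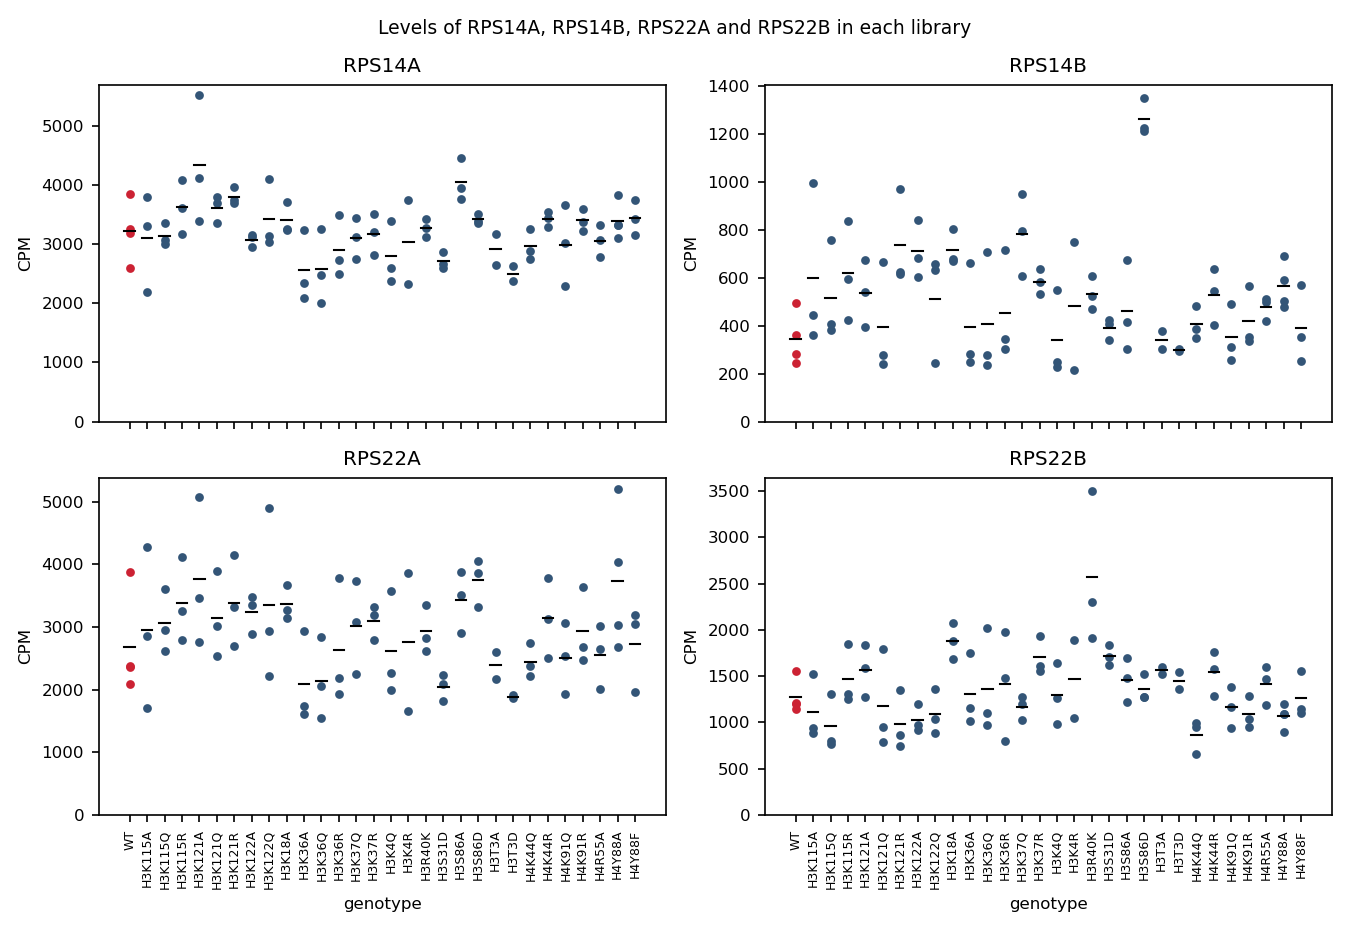
Levels of RPS14A, RPS14B, RPS22A and RPS22B (CPM, y axes from 0) in each library (points) with the genotype mean (bars); WT is red and H3K4R S55 is left out. RPS14B stands at 1211 to 1349.6 CPM in H3S86D and RPS22B at 1908 to 3505 CPM in H3R40K. RPS14A in H3S86D and RPS22A in H3R40K stay within their WT ranges.

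RPS14B and RPS22A are neighbours on chromosome X: they face each other with their 3′ ends, 298 bases apart in the annotated coordinates. Without a stated strand setting, reads of the one running past its end could be counted in the other. In H3S86D RPS22A had 4053, 3860 and 3327 CPM, overlapping WT (log2 fold change 0.48, adjusted p = 0.397). The part of such reads in the level of RPS14B was not tested.

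In H3S31D, 10 of the 54 genes fell and none rose, where 3.14% of all genes fell. These were RPS6A, RPS10A, RPS18B, RPS19A, RPS19B, RPS26A, RPS26B, RPS27B, RPS30A and RPS30B. Over the 54 genes, 47 had a log2 fold change below 0, and 27 had every library of H3S31D below every library of WT, against 11.6% of all genes. The deepest decreases were in the RPS19 pair, which encodes a protein of the head needed to mature pre-rRNA. RPS19A (YOL121C) stood at 103.8, 243 and 60.6 CPM in S139, S140 and S141, against 412, 898, 401 and 302 CPM in WT S133, S46, S81 and S82 (log2 fold change -1.88 ± 0.46 SE, adjusted p = 0.0185 in edgeR). RPS19B stood at 326, 470 and 248 CPM, against 652, 1725, 1164 and 615 CPM (-1.58 ± 0.43, adjusted p = 0.0282). Neither gene overlapped WT, and S46 was the highest WT library for both.

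RPS27B (YHR021C), a zinc-binding protein, had 441, 794 and 406 CPM in H3S31D. WT S46 had 4391 CPM and the other WT libraries 1042, 1059 and 755, so that H3S31D S140 overlapped WT (log2 fold change -1.73 ± 0.51, adjusted p = 0.0385). Both copies of RPS26, a protein of the mRNA exit, also fell. RPS26A had 1899, 2244 and 2122 CPM against 3292, 3438, 3238 and 2812 in WT (-0.61 ± 0.19, adjusted p = 0.0458). RPS26B had 209, 265 and 206 CPM against 497, 599, 693 and 370.3 (-1.25 ± 0.36, adjusted p = 0.0341). In neither copy did the groups overlap.

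Both copies of RPS30 fell as well. RPS30A had 314, 370.3 and 338 CPM in H3S31D against 670.2, 607, 795 and 568 in WT (-0.95 ± 0.28, adjusted p = 0.0385). RPS30B had 1192, 1546 and 1558 CPM against 2097, 2222, 3069 and 1911 (-0.70 ± 0.21, adjusted p = 0.0427). Of the other 3 genes, only the A or the B copy passed: RPS6A (the phosphorylated protein of the body; -1.08), RPS10A (the beak, near the mRNA entry; -0.96) and RPS18B (the head, at the interface with the large subunit; -1.09). RPS6A had 511, 619 and 470.1 CPM against 654, 1688, 1460 and 719.6 in WT. RPS10A had 400.5, 498 and 489 CPM against 1012, 851, 1092 and 636. RPS18B had 213, 257 and 218 CPM against 371, 682, 532 and 367. None of these 3 genes overlapped WT.

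The count of 10 in H3S31D depended on single libraries. It was 0 without WT S46, 2 without WT S81, 0 without H3S31D S139 or S141, 1 without S140, and 14 without WT S133 or S82. DESeq2 called 14. With the set as a covariate, which leaves WT S133 and H4Y88A S132 to tell the set from these mutants, 0 were called. WT S133 was above all 3 libraries of H3S31D for each of the 10 genes.

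H3T3D had the same median as H3S31D but 1 call: RPS10B, the major copy of RPS10, at 1196 and 1251 CPM against 1842, 1629, 1766 and 1525 in WT (log2 fold change -0.47 ± 0.15 SE, adjusted p = 0.0469 in edgeR, where 3.28% of all genes fell). The groups did not overlap. In H3T3D 52 of 54 log2 fold changes were below 0, and 25 genes had both libraries below every WT library, against 16.8% of all genes. RPS10B was not called without either library of H3T3D, without WT S81 or S133, without the filter, with the set as a covariate, or with the ratio of multiply placed reads (described further on) as a covariate. In the opposite direction, 49 of 54 log2 fold changes were above 0 in H3S86D, where 15 genes had every library above every WT library, against 6.29% of all genes; RPS14B alone passed there.

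In H4R55A, RPS0A fell. RPS0A and RPS0B encode a protein of the mRNA exit side that is needed to mature the 18S rRNA. RPS0A had 1562, 289 and 1195 CPM in S124, S125 and S126, against 1686, 2636, 4422 and 1511 CPM in WT, and the groups overlapped (log2 fold change -1.34 ± 0.32 SE, adjusted p = 0.0205, where 0.859% of all genes fell). S125 was low for other genes too, with 21.9 CPM of RPS19A against 376 and 267 in its companions, and 172 CPM of RPS27B against 1473 and 927. Without S125, or without S126, no member was called in H4R55A, and RPS0A was not called with the set as a covariate (log2 fold change -0.92, adjusted p = 0.401). Without WT S81, too, no member was called (RPS0A -0.94, adjusted p = 0.168). There were 6 calls without WT S133 and 2 without WT S82. Without S124 there were 9: RPS0A, RPS4B, RPS6A, RPS9A, RPS11B, RPS19A, RPS19B, RPS24A and RPS26B. That fit leaves S125 and S126 alone in H4R55A. The shares of all genes called with single libraries left out are not given here.

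Substitutions of the same residue were compared with each other in 17 pairs, which use no WT library. Of 918 comparisons of the 54 genes, 0 passed in edgeR, with 17 at an unadjusted p under 0.05, and DESeq2 called 0; over all genes 0.694% passed. Among these, the pair of H4K44Q and H4K44R had RPS22B lower in H4K44Q by a log2 of -0.83 (unadjusted p = 0.00359, adjusted p = 0.465).

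Paralogues were then compared within each library by the log2 ratio of A to B, which needs no scaling between libraries. This log2 ratio was not adjusted for the ratio of multiply placed reads described further on. In WT the A copy was the higher in 14 pairs and the B copy in 8, and in 9 pairs the major copy had at least 3 times the level of the minor. The A copy made up 4.23% of the pair's counts for RPS9 and 98.2% for RPS28, the extremes. These are shares of counts, and whether the 3′ ends of both copies lie within the counted spans was not tested. In 16 pairs the same copy was the higher in every library that was deep enough. Among genotypes, 13 of the 22 ratios differed by a permutation test (F statistic over genotypes, 100000 permutations, one-sided, unadjusted p under 0.05). If libraries of all sets could be exchanged, 1.1 of 22 would do so without any difference, but genotypes are spread unevenly over the sets. With labels permuted within sets, 13 ratios again passed. RPS4 and RPS6 were lost (permutation p = 0.0562 and 0.0808), and RPS1 and RPS7 were gained (0.0373 and 0.0279).

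The ratio of RPS22A to RPS22B varied most, with a standard deviation of 0.43 over the genotype means on the log2 scale (permutation p = 1e-05, the smallest the permutations can give). In the RPS22 pair RPS22A made up 64.7%, 71.3%, 66.2% and 66.4% of the counts in WT S133, S46, S81 and S82. In H3R40K it made up 59.3%, 57.8% and 44.7%, below every WT library, and in H3K121R 75.5%, 79.4% and 78.3%, above every WT library. In all, 5 mutants lay below every WT library and 5 above. H3S31D was nearly as low as H3R40K, at a mean log2 ratio of 0.25 against 0.23. The pair also had the lowest correlation of its copies across genotype means (Pearson's r = -0.06), against 0.80 for the median pair.

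For RPS14, with a standard deviation of 0.42 (permutation p = 0.0006), the A copy made up 71.5%, 74.1% and 73.5% of the pair in H3S86D and 81.9%, 79.8% and 78.4% in H3K37Q. In WT it made up 90.2%, 86.8%, 94.04% and 89.8%. Both mutants lay below every WT library, as did H3K121R, H3K122A, H3K18A and H3K37R. For RPS9, with a standard deviation of 0.36 (permutation p = 1e-05, the smallest the permutations can give), the A copy made up 2.46%, 5.10%, 5.03% and 4.35% in WT S133, S46, S81 and S82. In H4R55A it made up 2.50%, 1.68% and 1.83%, which overlaps WT through S133, the WT library of the same set. RPS9 ratios were highest in H3K121R, at a mean log2 of -3.92 against -4.55 in WT.

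The ratios of RPS4 (a protein of the body), RPS26 and RPS0 followed, with standard deviations of 0.34, 0.32 and 0.31 (permutation p = 0.002, 0.00197 and 0.0216). All 3 had an extreme in H4R55A, and there S125 stood apart. For RPS4, the A copy made up 93.9% in S125 against 79.4% and 82.4% in S124 and S126 and 69.2% to 76.8% in WT. For RPS26, it made up 97.3% in S125 against 89.1% and 91.97% and 82.4% to 88.4% in WT. For RPS0, it made up 23.4% in S125 against 59.98% and 51.2% and 52.003% to 70.3% in WT. Without S125 the 3 standard deviations were 0.28, 0.25 and 0.27 (permutation p = 0.00709, 0.00556 and 0.0191). With labels permuted within sets, RPS4 no longer passed the permutation test (p = 0.0562).

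Among the steadiest ratios were those of RPS25 and RPS24, with standard deviations of 0.09 and 0.15 (permutation p = 0.308 and 0.28). RPS25A made up 71.1%, 70.6%, 68.4% and 65.9% of its pair in WT, and genotype means of the log2 ratio ran from 1.02 in H3S86D to 1.41 in H3T3D. The levels of RPS25A and RPS25B rose and fell together across genotypes, with the highest correlation of any pair (r = 0.95). A p that misses the threshold does not show that these ratios were the same in every genotype.

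**Figure D4:**
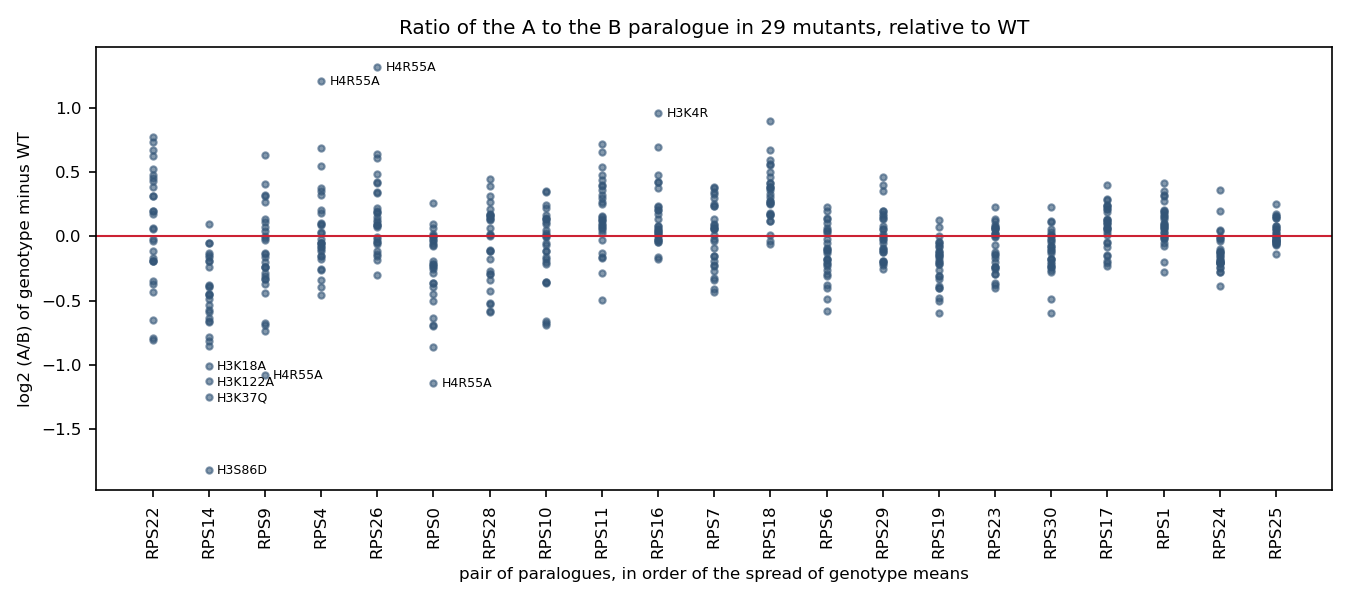
Log2 ratio of the A to the B paralogue in each mutant minus that in WT (genotype means, points, y axis) for 21 of the 22 pairs, in order of the standard deviation of the genotype means. The points farthest from WT are named: RPS14 in H3S86D is lowest, and RPS26 and RPS4 in H4R55A, which rest in part on library S125, are highest.

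RPS21A and RPS27A, on chromosome XI, were called in H3K121R, where 3.83% of all genes rose. RPS21A rose (log2 fold change 1.22, adjusted p = 0.000153 in edgeR) and so did RPS27A (1.24, adjusted p = 0.00671), while RPS21B had 0.47 (adjusted p = 0.361) and RPS27B 0.07 (adjusted p = 0.975). The difference between partners was not tested. The other 5 genes called higher in H3K121R among the lists described further on also carry identifiers of chromosome XI. RPS21B, a protein of the mRNA exit side, had 1526 ± 411 CPM (SD, n = 4) in WT and 2120.0 ± 374 (n = 3) in H3K121R.

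A measure of the libraries themselves moved with these genes. Multiply placed reads, which the table reports in a summary line, numbered 2.64 to 4.78 times the gene counts in WT, 5.98 to 7.71 times in H3S31D, 7.92 and 8.17 times in H3T3D, 2.04 to 2.77 times in H3S86D and 1.26 to 1.62 times in H3R40K. Which sequences these reads come from is not given in the sources used here. Across the 30 genotype means, the share of counts in the 54 genes fell with the log2 of this ratio (Pearson's r = -0.77, Spearman's rho = -0.83). Without H3R40K and H3T3D, the genotypes farthest from the median ratio, r was -0.88, and within the 3 sets it was -0.91, -0.85 and -0.72 over 22, 21 and 10 genotypes. Both measures are divided by the gene counts, and no p is given for a sum over chosen genes.

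Within genotypes, in a fit with 1 slope per gene added after the data were seen, 49 of the 54 genes fell as the ratio rose, against 27.7% of all genes. The slopes of RPS27B and RPS19B were the steepest, at -1.03 ± 0.16 (SE) and -0.99 ± 0.13 on the log2 scale per doubling of the ratio. RPS20 rose, by 0.79 ± 0.09 (adjusted p = 1.1e-11 in edgeR). The 4 genes that did not pass included RPS14B, RPS22B and RPS0B, with slopes of -0.18, -0.07 and -0.04. A slope that did not pass is not shown to be flat: its standard error was 0.16 for RPS14B and 0.11 for RPS22B. The copies of a pair could differ in slope, as in RPS0 (A -0.63, B -0.04) and RPS4 (A -0.29, B -0.81). In RPS25 they were close (A -0.54, B -0.55). Whether the ratios of paralogues moved with the ratio of multiply placed reads was not tested.

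With the ratio as a covariate, 0 of 54 genes were called in H3S31D, where 0.189% of all genes were. RPS14B was still called in H3S86D (log2 fold change 1.77, adjusted p = 0.00472) and in H3K37Q (1.201, adjusted p = 0.0308), RPS22B in H3R40K (0.91, adjusted p = 0.00825) and RPS0A in H4R55A (-0.99, adjusted p = 0.047). In H3R40K, which lies below all other genotypes in this ratio, 38 of 54 genes were called with it, among 39.8% of all genes. RPS20 (1.04) and RPS22B (0.91) were higher there, and all the others called were lower. Without the ratio, the median of the 54 log2 fold changes in H3R40K was -0.08, with 1 call. The ratio and the genotype cannot be told apart where no library overlaps WT in this ratio, as in H3R40K below WT and in H3S31D, H3T3D, H3T3A, H3K36A, H3K36Q and H4R55A above it.

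**Figure D5:**
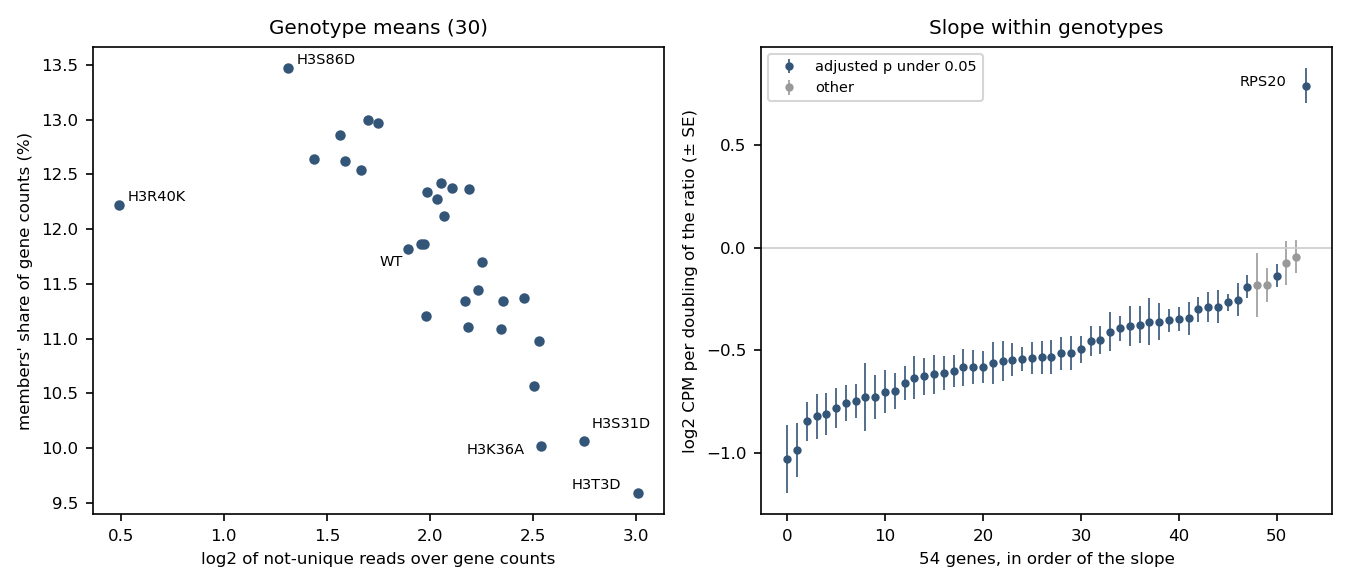
Left, share of gene counts in the 54 genes (percent) against the log2 ratio of multiply placed reads to gene counts, as means of the 30 genotypes. Right, slope of each gene's log2 level on that log2 ratio within genotypes, with its standard error: 49 genes fell, RPS20 rose and 4 did not pass.

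Other genes of the ribosome and of its regulation were counted from lists. The 81 genes of the large subunit had a median log2 fold change of -0.48 in H3S31D, -0.49 in H3T3D and 0.30 in H3S86D, close to those of the small subunit. In H3S31D, 9 of them fell, RPL25 (-1.70), RPL37B (-1.54) and RPL8A (-1.49) among them, and RPL2A rose (0.58). Of all genes, 3.14% fell and 2.13% rose there. The calls of the lists come from the fit without covariates. Of 23 tested activators and repressors of ribosomal protein genes, 0 were called in H3S31D, H3T3D and H3S86D, and 2 in H3R40K, where 4.57% of all genes rose: TOR2, a TOR kinase (0.56), and CKB1, a regulatory subunit of casein kinase (0.53). TOR2 carries an identifier of chromosome XI (YKL203C). TOR2 also rose in H3K121R (0.73, where 3.83% of all genes rose) and in H3K37Q (0.89, where 4.29% rose). The large subunit and biogenesis genes called higher in H3K37Q carry identifiers of that chromosome too, unlike the stress genes called there. A part of the chromosome in these calls was not tested. Of 21 assembly factors of the 40S subunit, DIM1, the dimethyltransferase of 18S rRNA, fell in H3S31D (-0.60), a share of the list near the 3.14% of all genes that fell, and TSR4 (0.71) and NOB1 (0.79), which cuts the 3′ end of 18S rRNA, rose in H3R40K, again against 4.57% of all genes.

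Of 63 ribosome biogenesis factors, 4 fell and 1 rose in H3S31D, where 3.14% of all genes fell and 2.13% rose. The list as a whole did not fall there: its median log2 fold change was -0.02, as over all genes (-0.02). Its lowest medians were in H3K121Q (-0.63), H3K37Q (-0.54) and H3K121R (-0.46), where 1, 1 and 0 of its genes were called lower. Those that fell in H3S31D included ARX1, an export factor (-1.56), TIF6, which keeps the subunits apart (-1.38), and NOP1, the methyltransferase of box C/D particles (-1.16). GAR1, of the box H/ACA particles, rose (0.80). Of 20 general stress genes, 12 rose in H3T3D, such as HSP12 (4.52) and ALD3 (2.37), with a median of 1.57, against 4.53% of all genes, whereas 0 were called in H3S31D (median 0.19). Of the same 20 genes, 2 rose in H3S86D, which had the highest share of small subunit genes: HSP12 (2.53) and ALD3 (1.57). There 0.601% of all genes rose, and the median of the stress genes was 0.11. Stress genes also rose in H3T3A (4, against 0.55% of all genes), in H3K121Q (2, against 0.739%) and in H3K37Q (2, against 4.29%). In H3R40K 1 rose, which is near the 4.57% of all genes that rose there.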

How the data were processed

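Raw gene counts as deposited by the authors were used. Per the submitters' processing notes, the tools were featureCounts 1.5.3, HTSeq and TopHat, on build sacCer3; their roles and the strand setting are not given in the sources used here. The 5 summary lines of the table, multiply placed reads among them, were kept out of totals and tests. Symbols and coordinates came from the RefSeq annotation of assembly R64, which matched 6045 of 7122 genes (84.9%).

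Genes were filtered with filterByExpr, libraries scaled by TMM, and 1 model with a term for each of the 30 genotypes was fitted over 90 libraries with edgeR 4.0.16 (limma 3.58.1, R 4.3.3; 60 residual degrees of freedom). The quasi-likelihood test was adjusted over 5822 genes (Benjamini-Hochberg). The common dispersion of 0.0543 is a spread of 23.3% between libraries. DESeq2 1.42.0 was an alternative; others changed the scaling, the filter, the covariates or the libraries. Each comparison with WT uses the same 4 WT libraries. Nothing in the labels says that replicates came from separate cultures, so p values measure the spread between these libraries, which may be technical.

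Paralogue ratios were log2 of counts plus 0.5, in libraries with at least 100 counts in the pair. The scripts were tested on simulated data. Values were given for called genes, the 3 highest and 3 lowest in WT, the single genes, the most and least variable pairs (6 and 3), and at most 4 called genes of each list; some members that this rule takes in are not reported here. The members, the lists and the sets of sample numbers were chosen with earlier results of these data known. The 14 samples of chromatin accessibility and the authors' table of fold changes were not used here.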

Additional observations from a re-analysis of the deposited data

Results flagged for a closer look

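In WT and H4Y88A, the genotypes with 4 libraries, the genes reported here were looked at for 1 library far from the other 3. This was found 9 times. Chance gives it in about 1 in 20 sets of 4 values, which is 5.1 times here, and the values of 1 library are not independent. In WT the library was S46 each time, always as the highest. RPS15 had 4668.12 CPM there, with 2313 in the next library, RPS17A 2077.13 with 696 in the next, and RPS18A 2092.09 with 1277. RPS22A had 3878.31 CPM with 2378 in the next library, RPS22B 1560.57 with 1213, and RPS24B 872.723 with 639.7. RPS27B had 4390.8 CPM with 1059 in the next library. In H4Y88A the library was S48, with 13710 CPM of RPS12 against 10463 in the next library and 829.084 CPM of RPS19A against 311. WT S46 had the lowest ratio of multiply placed reads to gene counts among the WT libraries (2.64). Its part in these values was not tested.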

How the results depend on the processing

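No paired analysis was possible because no replicate number stands in the column names, which hold the genotype and sample number. None of the 15 calls against WT changed direction under the alternatives. RPS22A in H3R40K, not called at 0.13, was -0.64 with the ratio of multiply placed reads as a covariate. The 15 calls against WT became 29 with DESeq2 and 42 with the ratio of multiply placed reads as a covariate, an alternative chosen after seeing the data, as was leaving out H4R55A S125. With that ratio, calls numbered 38 in H3R40K, 1 in H4K44Q, and 0 in H3S31D and H3T3D. With the set of sample numbers as a covariate, calls numbered 11 in H3K36A, 2 in H3K37Q, 1 in H3K4Q, 2 in H3R40K, 1 in H4K44Q, 0 in H3S31D, H3T3D and H4R55A, and 3 between substitutions of 1 residue. DESeq2 gave 5 in H3R40K, 3 in H3T3D and 5 in H4R55A. RLE scaling gave 3 in H3R40K and 2 in H4R55A. Without the filter, H3K37Q and H3T3D had 0. TMM without ribosomal protein genes, and leaving out H3K4R S55, each gave 0 in H3K37Q and 2 in H3R40K. Shares of all genes called under an alternative are given above for H3K36A with the set as a covariate. They are also given for H3S31D and H3R40K with the ratio of multiply placed reads. For the other counts here they are not given. Whether those counts rose or fell more than calls over all genes was therefore not tested. The cause of the changes in calls was not tested.

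With single libraries left out, the calls against WT ran from 3 to 26. They ran from 0 to 14 in H3S31D, 0 to 9 in H4R55A, 0 to 3 in H3R40K, and 0 to 2 in H3K121R, H3K36A, H3K37Q and H3T3D. They ran from 0 to 1 in H3K4Q and in H3K4R. Genes that differed among genotypes numbered 32 to 44, against 36. H3S86D kept 1 call throughout. Depth limits the lowest genes most, and H3K4R S55, with 24010 counts, limits H3K4R; without S55, H3S31D had 11 calls.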
